A study of Mus musculus with 6 samples.

Results

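The transcripts described here are those of 10 genes of the microtubule cytoskeleton: the alpha-tubulins Tuba1a, Tuba1b, Tuba4a and Tuba8, the beta-tubulins Tubb2a, Tubb2b, Tubb4a and Tubb5, the microtubule-binding protein tau (Mapt) and the tubulin-binding protein stathmin (Stmn1). They were taken by gene symbol from a table of mRNA read counts for 14495 genes, and all 10 were found and passed the filter on low counts. Hearts came from male mice of the C57BL/6 strain on day 14 after birth (P14) and on day 1 (P1), with no genetic change or treatment given in the labels at either age. Each age had 3 libraries, and each library was a pool of 3 hearts, 9 hearts per age. The tissue is described both as ventricles with the septum kept and as left ventricle. The genes were chosen on their P14 and P1 levels in these same 6 libraries, so their age differences are given as a description, with no p-value, and any call among them is a description as well.

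Microtubules are built from dimers of 1 alpha- and 1 beta-tubulin, and mammals encode several isotypes of each, which differ mainly in their acidic carboxy-terminal tails. Those tails carry most of the enzymatic marks of tubulin, among them the removal and return of the last tyrosine and the addition of glutamate chains. Tau binds along microtubules and stabilises them, whereas stathmin binds free tubulin dimers and promotes disassembly. In the heart, microtubules build the mitotic spindle of dividing cells and, in the mature cardiomyocyte, a stable lattice around the nucleus and between myofibrils that is known to resist shortening.

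The DNA that encodes the end of 6 of the tubulins is shown because the isotypes are told apart there and because the short reads had to be assigned by such differences. Each line holds the last 60 coding bases on GRCm38 (GENCODE M21), 5′ to 3′, with the stop codon at the end and glutamate codons (GAA or GAG) in capitals. The alpha ends lie in Tuba4a at chr1:75215622-75215681 (minus strand) and Tuba8 at chr6:121226020-121226079 (plus strand), each in the last coding exon.
Tuba4a: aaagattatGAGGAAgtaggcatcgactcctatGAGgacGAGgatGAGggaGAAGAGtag
Tuba8: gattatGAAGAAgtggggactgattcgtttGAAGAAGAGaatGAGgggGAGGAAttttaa
The last codon before the stop is GAG, for glutamate, in Tuba4a and TTT, for phenylalanine, in Tuba8, whereas the other alpha-tubulins measured (Tuba1a, Tuba1b and Tuba1c) end in a codon for tyrosine. The 19 codons before the stop hold 7 glutamate codons in Tuba4a and 8 in Tuba8.

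The beta ends lie in Tubb2a at chr13:34074468-34074527 (minus strand), Tubb2b at chr13:34127471-34127530 (minus strand), Tubb4a at chr17:57080690-57080749 (minus strand) and Tubb5 at chr17:35834982-35835041 (minus strand).
Tubb2a: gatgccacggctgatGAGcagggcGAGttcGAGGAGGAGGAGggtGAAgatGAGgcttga
Tubb2b: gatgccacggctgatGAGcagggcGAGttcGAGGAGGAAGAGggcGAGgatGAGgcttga
Tubb4a: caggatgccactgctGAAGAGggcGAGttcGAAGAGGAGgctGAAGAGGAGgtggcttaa
Tubb5: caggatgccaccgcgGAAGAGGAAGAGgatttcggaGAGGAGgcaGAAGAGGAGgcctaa
The last codon is GCT in Tubb2a, Tubb2b and Tubb4a and GCC in Tubb5, all for alanine. Tubb2a and Tubb2b differed at 3 of these 60 bases. Over the 1356 coding bases of Tuba1a and Tuba1b 23 differed (98.3% identity), and over the 1338 of Tubb2a and Tubb2b 47 differed (96.5% identity).

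Such likeness bears on the counts, because the libraries were read for 36 cycles. Of all 36-base windows in the annotated transcripts of each gene, 100% were found at no other annotated locus in Mapt, 99.1% in Tuba8, 98.9% in Tubb4a, 98.2% in Tuba4a, 97.7% in Tubb5 and 80.2% in Stmn1. The share was 58.7% in Tubb2b, 46.0% in Tubb2a, 32.0% in Tuba1a and 22.3% in Tuba1b. The handling of reads with several matching places is not stated in the labels, so the levels of Tuba1a, Tuba1b, Tubb2a and Tubb2b, and the split within each of these pairs, are uncertain.

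**Figure D1:**
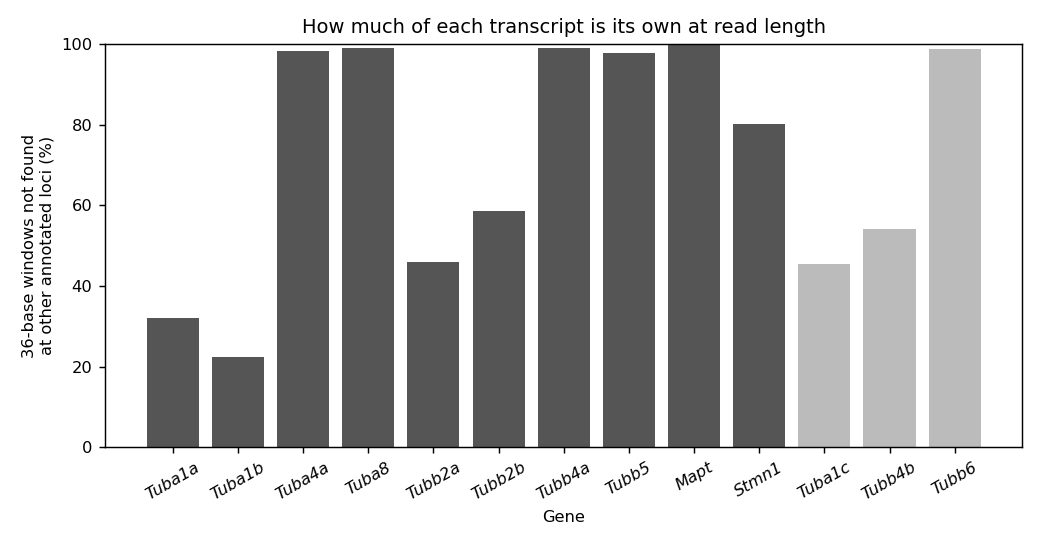
The bars give the percentage of 36-base windows of each gene's annotated transcripts that occur at no other annotated locus, in dark grey for the 10 genes described and light grey for the other measured tubulins. Tuba1b has the lowest bar at 22.3% and Mapt the highest at 100%.

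Total counts were 9104230 to 15725993 per library at P14 and 5916557 to 17353933 per library at P1. Levels are given as CPM, the count of a gene relative to the size of its library, scaled by edgeR's TMM method, and log2 fold changes are P14 minus P1 with the standard error (SE) of edgeR's quasi-likelihood fit over 14301 genes. A gene counts as called where its Benjamini-Hochberg adjusted p is under 0.05. In that fit 43.8% of all genes were called, 21.8% higher at P14 and 22.0% lower, and with library totals alone in place of TMM the share of higher genes among those called was 22.5% in place of 49.7%. The median gene then had a log2 fold change of −0.47 in place of −0.01. The 8 cardiomyocyte markers that check the tissue label were all detected and summed to 75659 to 94493 CPM at P14 and 56387 to 58984 CPM at P1. Among these 10 genes P1 replicate 2 and P14 replicate 3 were each the lowest library of their age for 6, and P14 replicate 1 was the highest of its age for 6.

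Of the 10 genes, 4 were called higher at P14 (Tuba4a, Tuba8, Tubb4a and Mapt), 4 were called lower (Tubb2a, Tubb2b, Tubb5 and Stmn1), and Tuba1a and Tuba1b were not called. The 3 P14 values lay wholly outside the 3 P1 values in all 10, as they did in 54.8% of all genes. Both counts follow from how the list was made, and nothing is read from them. Some markers of other cells also differed, where 21.8% of all genes were called higher at P14. Of 6 macrophage markers 5 were called higher at P14 (sum 161 to 177 CPM, against 53.2 to 59.8 CPM at P1), as were 3 of 4 erythroid markers (2178 to 2901 CPM at P14, against 388 to 792 CPM at P1). Of 5 smooth muscle and pericyte markers 4 were called higher and 1 lower (1581 to 1950 CPM at P14, against 1649 to 2510 CPM at P1). Only 1 of 6 endothelial and 1 of 6 fibroblast markers were called higher. The endothelial sums overlapped (539 to 600 CPM at P14, against 562 to 625 CPM at P1), as did the fibroblast sums (989 to 1382 CPM at P14, against 760 to 1037 CPM at P1). The part of these cell types in the differences of the 10 genes was not tested. In this bulk tissue, fewer cells of a type and less RNA per cell cannot be told apart.

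**Figure D2:**
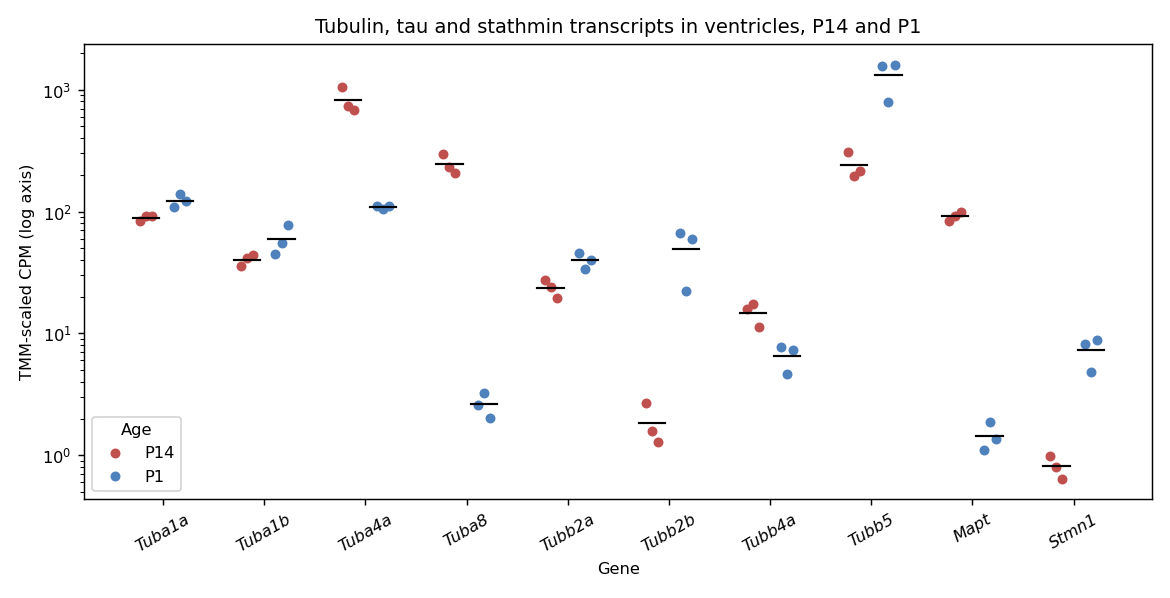
Each point is 1 library (P14 in red, left; P1 in blue, right), on a log axis of TMM-scaled CPM, and each bar is the mean of 3 libraries. Tuba8 (208 to 296 CPM at P14, 2.02 to 3.26 CPM at P1) shows the widest gap between ages, and the points of Tuba1b lie close together (35.5 to 43.7 and 44.9 to 77.6 CPM).

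Among the alpha-tubulins, Tuba4a and Tuba8 were higher at P14. Tuba4a (ENSMUSG00000026202; chromosome 1, 75214228 to 75219865), which like Tuba8 encodes no final tyrosine, had 1061, 733 and 685 CPM in the P14 libraries, against 111, 105 and 112 CPM in the P1 libraries. The lowest P14 library was far above every P1 library, and the P1 libraries were close together. The log2 fold change was 2.92 ± 0.23 (SE), a 7.55-fold higher level. Exons of Tuba4a overlap 1379 bases of exons of Stk16, a kinase gene on the opposite strand, and the labels do not say whether counting used strand. Stk16 itself had 193, 161 and 150 CPM at P14 and 67.3, 65.5 and 74.9 CPM at P1 (edgeR, 1.28 ± 0.19 on the log2 scale, adjusted p = 1.17e-04), all below the Tuba4a values of the same library.

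Tuba8 (ENSMUSG00000030137; chromosome 6, 121210696 to 121226854), an alpha-tubulin known from striated muscle and testis, had 296, 230 and 208 CPM at P14, against 2.59, 3.26 and 2.02 CPM at P1. The P1 values rest on 56, 56 and 12 reads. The log2 fold change was 6.49 ± 0.28, a 90.1-fold higher level, and only 4 of the 14301 genes had a larger one. Exons of Tuba8 overlap 368 bases of Gm15856, a noncoding antisense gene, which had 93.2, 84.2 and 77.1 CPM at P14 and 0.370, 0.525 and 0.674 CPM at P1. Gm15856 had the largest rise of all genes (7.44 on the log2 scale, edgeR adjusted p = 2.47e-09), and without knowledge of strand its reads and those of Tuba8 cannot be told apart in the overlap. Of the 8 cardiomyocyte markers 5 were called higher and 1 lower, with a sum of 75659 to 94493 CPM at P14 and 56387 to 58984 CPM at P1. The part of cardiomyocytes in the differences of Tuba8 and Gm15856 was not tested.

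Tuba1a and Tuba1b, broadly expressed in young and dividing tissue, lie close together on chromosome 15 with Tuba1c nearby, and they were slightly lower at P14. Tuba1a (ENSMUSG00000072235; 98949837 to 98953703) had 83.1, 92.1 and 91.2 CPM at P14, against 108, 138 and 123 CPM at P1, with a log2 fold change of −0.47 ± 0.19. Tuba1b (ENSMUSG00000023004; 98931425 to 98934565) had 35.5, 41.6 and 43.7 CPM at P14, against 44.9, 54.9 and 77.6 CPM at P1, with a log2 fold change of −0.55 ± 0.22. The ages did not overlap for either gene, but the highest P14 library of Tuba1b (43.7 CPM) lay close to its lowest P1 library (44.9 CPM). Leaving out 1 library gave Tuba1b a log2 fold change of −0.72 (without P1 replicate 1) to −0.29 (without P1 replicate 3), and Tuba1a −0.56 (without P1 replicate 1) to −0.38 (without P1 replicate 2). The calls also moved with the settings. Tuba1b was called lower in the fit that blocks on replicate number (−0.52), without P1 replicate 1 and without P1 replicate 2 (−0.60). Tuba1a was called lower with the stricter filter (−0.48). Both were called lower with upper quartile scaling (−0.54 for Tuba1a and −0.61 for Tuba1b), with library totals alone (−0.93 and −0.99) and after the correction for GC content and length (−0.61 and −0.85).

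Tubb5 (ENSMUSG00000001525; chromosome 17, 35833921 to 35838306), the beta-tubulin of most dividing cells, was the most abundant of the 10 transcripts at P1 per kilobase of exon, and lower at P14. It had 308, 197 and 214 CPM at P14, against 1561, 786 and 1603 CPM at P1. P1 replicate 2 was well below the other P1 libraries but above every P14 library. The log2 fold change was −2.46 ± 0.29, a 5.49-fold lower level. Tubb2b (ENSMUSG00000045136; chromosome 13, 34126748 to 34130466), known best from migrating neurons, had 2.67, 1.59 and 1.29 CPM at P14, against 66.2, 22.4 and 59.4 CPM at P1. P1 replicate 2 was again the lowest of its age, and the P14 values rest on 38, 12 and 10 reads. Its log2 fold change of −4.65 ± 0.46, a 25.2-fold lower level, was the most negative of the 10. Without P1 replicate 2 the log2 fold changes were −2.72 for Tubb5 and −4.99 for Tubb2b.

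Its neighbour Tubb2a (ENSMUSG00000058672; chromosome 13, 34074274 to 34078007) had 27.2, 23.9 and 19.6 CPM at P14, against 46.1, 33.9 and 39.9 CPM at P1, with a log2 fold change of −0.76 ± 0.21. It was not called without P14 replicate 3, at −0.64. Tubb4a (ENSMUSG00000062591; chromosome 17, 57080066 to 57087782), a beta-tubulin of brain, was the only beta-tubulin of the 10 genes that was higher at P14, with 15.9, 17.3 and 11.3 CPM against 7.73, 4.66 and 7.24 CPM at P1. The log2 fold change was 1.19 ± 0.27, a 2.28-fold higher level.

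Mapt (ENSMUSG00000018411; chromosome 11, 104231390 to 104332090) had 83.3, 92.5 and 99.5 CPM at P14, against 1.11, 1.87 and 1.35 CPM at P1. The P1 values rest on 24, 32 and 8 reads, and the P14 values on 1183, 697 and 773. The log2 fold change was 5.98 ± 0.27, a 63.1-fold higher level, and 10 genes of the table had a larger one. Mapt is known best as a neuronal gene. Of 12 neuron markers 3 had rows that could be tested (Dbh, Gap43 and Uchl1), of which 1 was called higher and 2 lower. Dbh, the enzyme that makes noradrenaline, rose to 33.4 ± 4.09 CPM at P14, against 3.51 ± 1.29 CPM at P1 (edgeR adjusted p = 9.54e-07). Gap43, a growth-cone protein, fell to 0.581 ± 0.275 CPM, against 5.40 ± 1.18 CPM, and Uchl1 was called lower as well. The plan gave only summed levels for markers, so the single levels of Dbh and Gap43 went beyond it. The sum of the 3 was 44.8 to 62.8 CPM at P14 and 27.2 to 58.0 CPM at P1, and the other 9, among them Snap25, Nefl and Th, are not analysed here; the part of nerve cells in the Mapt difference was not tested. Of 8 Schwann cell and glia markers 6 were tested, 1 was called higher and 0 lower, and they summed to 37.3 to 41.4 CPM at P14 and 33.1 to 39.1 CPM at P1.

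Stmn1 (ENSMUSG00000028832; chromosome 4, 134468320 to 134473843) had 0.985, 0.797 and 0.644 CPM at P14, against 8.23, 4.78 and 8.76 CPM at P1. The P14 values rest on 14, 6 and 5 reads. P1 replicate 2 was the lowest of its age, and the ages did not overlap. The log2 fold change was −3.09 ± 0.38, an 8.53-fold lower level, and it was −3.33 without P1 replicate 2. Part of the Stmn1 transcript, 19.4% of its windows, occurs in Gm11223 on the same chromosome (69925630 to 69926079). Gm11223 had 2.67, 1.46 and 1.67 CPM at P14 and 31.6, 21.4 and 26.4 CPM at P1, more than Stmn1 in every library (edgeR, −3.71 ± 0.30 on the log2 scale, adjusted p = 4.86e-07). Reads of the shared windows cannot be assigned to either from these counts, so the Stmn1 level is uncertain. The 8 proliferation markers, such as Mki67 and Bub1, all fell and summed to 20.6 to 38.8 CPM at P14 and 355 to 383 CPM at P1. They were lower at P14, as Stmn1, Tubb5 and Tubb2b were. Within P1 the markers summed to 355, 383 and 368 CPM in replicates 1, 2 and 3. Their sum was highest in P1 replicate 2, where Stmn1, Tubb5 and Tubb2b were lowest, but the sums lay close together and nothing is read from their order. The part of the markers in the differences of these genes was not tested.

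**Figure D3:**
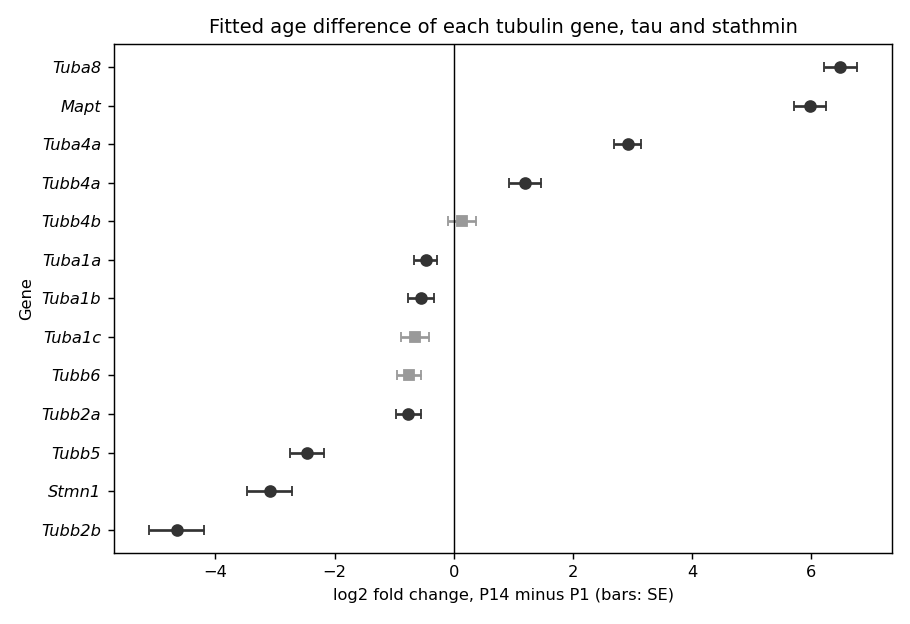
Points give the fitted log2 fold change, P14 minus P1, and bars its SE, for the 10 genes (dark circles) and the other alpha- and beta-tubulins measured (grey squares). The values run from −4.65 for Tubb2b to 6.49 for Tuba8, and Tubb4b lies at 0.14.

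Levels of different genes were set side by side as CPM per kilobase of merged exon length. At P14 the order was Tuba4a (223), Tuba8 (108), Tubb5 (72.0), Tuba1a (49.3), Tuba1b (21.5), Tubb2a (14.6), Mapt (12.2), Tubb4a (6.66), Tubb2b (0.807) and Stmn1 (0.421), as means of 3 libraries. The libraries of Tuba8 and Tubb5 overlapped, as did those of Tubb2a and Mapt. On this scale every other neighbouring pair in this order was separated in all libraries. At P1 the order was Tubb5 (396), Tuba1a (68.2), Tuba1b (31.5), Tuba4a (29.5), Tubb2a (24.8), Tubb2b (21.5), Stmn1 (3.78), Tubb4a (2.94), Tuba8 (1.16) and Mapt (0.191). From Tuba1b to Tubb2b neighbouring genes overlapped at P1, as did Stmn1 and Tubb4a. Tuba8 and Mapt, the bottom pair at P1, were second and seventh at P14.

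The composition of each family was computed over all measured genes, 5 for alpha-tubulin and 6 for beta-tubulin, from counts per kilobase of exon. Tuba4a made up 58.3%, 52.2% and 51.7% of alpha-tubulin transcripts in the P14 libraries, against 23.7%, 19.5% and 19.5% in the P1 libraries. Tuba8 made up 26.6%, 26.8% and 25.6% at P14, against 0.902%, 0.992% and 0.574% at P1. Tuba1a made up 9.37%, 13.5% and 14.1% at P14, against 47.1%, 52.7% and 43.7% at P1. The leading isotype was therefore Tuba4a in every P14 library and Tuba1a in every P1 library. Together, Tuba4a and Tuba8 held 80.4% ± 3.95 at P14 and 21.7% ± 2.51 at P1, while the 3 genes of the chromosome 15 cluster, which encode a final tyrosine, held 19.6% ± 3.95 and 78.3% ± 2.51 (SD, n = 3 libraries per age). The cluster changed less in level than in share, with 78.4 ± 3.49 CPM per kilobase at P14 and 112 ± 14.7 at P1. The shares depended on the divisor. Divided by the number of windows found in no other annotated gene, overlapping genes included, in place of exon length, Tuba4a and Tuba8 together held 58.0% ± 6.65 at P14 and 9.05% ± 1.29 at P1, and the cluster 42.0% ± 6.65 and 91.0% ± 1.29. On that scale the Tuba1a share was 27.9% ± 4.36 at P14 and 59.1% ± 5.09 at P1, and that of Tuba4a 42.0% ± 5.49 and 8.78% ± 1.26.

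Tubb5 made up 48.8%, 42.7% and 49.5% of beta-tubulin transcripts at P14, against 77.5%, 73.7% and 78.4% at P1, and was the leading isotype in all 6 libraries on this scale. Tubb2b held 0.516% ± 0.0925 at P14 and 4.01% ± 0.878 at P1. Tubb2a held 9.66% ± 0.919 at P14 and 5.11% ± 1.31 at P1, a higher share at P14 although its level was lower. Tubb4a held 4.42% ± 1.01 at P14 and 0.585% ± 0.0630 at P1. Tubb4b, a broadly expressed isotype outside the 10 genes, had 82.0 ± 20.4 CPM at P14 and 74.9 ± 20.8 CPM at P1, while its share was 25.6% ± 2.61 and 7.11% ± 0.753. Divided by unique windows, Tubb4b (36.9% ± 2.90) and Tubb5 (34.4% ± 3.52) had like shares at P14, against 12.1% ± 1.17 and 66.1% ± 3.0 at P1.

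The family totals moved apart. Alpha-tubulin transcripts summed to 492, 379 and 358 CPM per kilobase at P14, against 127, 145 and 155 at P1, a ratio of means of 2.87. Beta-tubulin transcripts summed to 189, 139 and 130 CPM per kilobase at P14, against 605, 321 and 615 at P1, a log2 ratio of −1.75. On this scale beta exceeded alpha in every P1 library and alpha exceeded beta in every P14 library. Divided by unique windows, a choice made after seeing the data, alpha summed to 919, 777 and 749 CPM per 1000 windows at P14, against 456, 549 and 578 at P1, and beta to 263, 198 and 177 at P14, against 708, 383 and 717 at P1. Alpha then exceeded beta in P1 replicate 2 as well. These sums carry the uncertainty of the shared reads and of the Stk16 and Gm15856 overlaps.

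**Figure D4:**
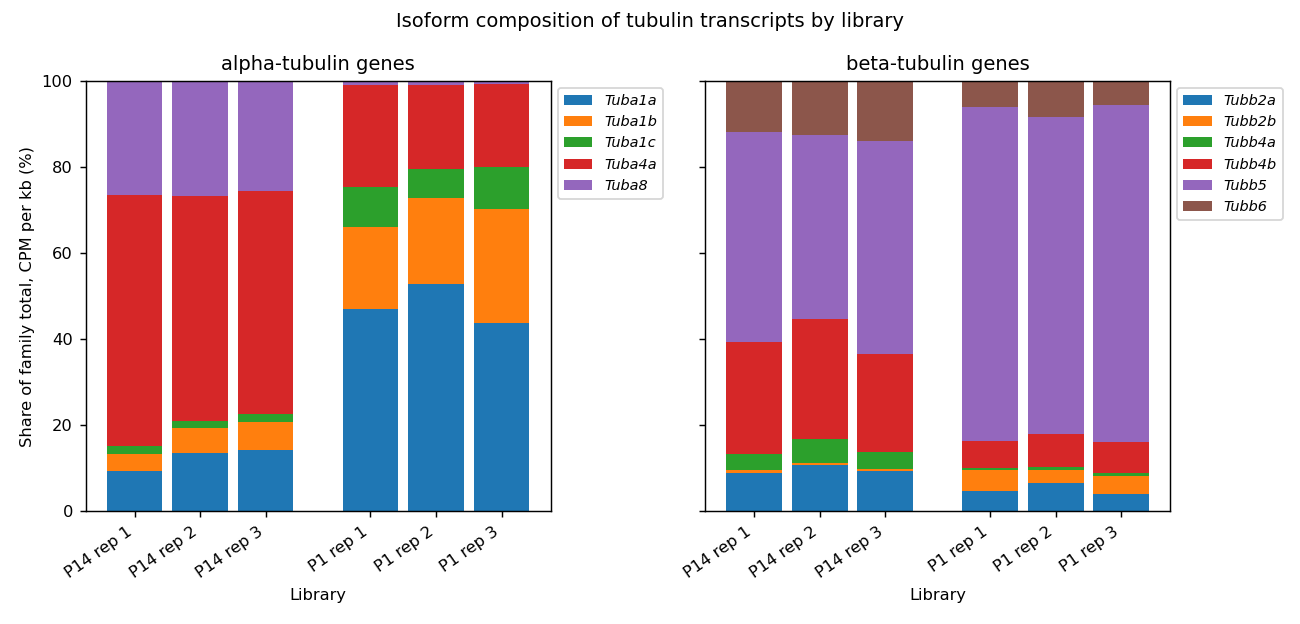
Each bar is 1 library, with the 3 P14 libraries left of the 3 P1 libraries, and colours give the percentage of alpha-tubulin (left panel) or beta-tubulin (right panel) transcripts from each gene, from CPM per kilobase. Tuba4a with Tuba8 fill 80.4% of the alpha panel on average at P14 and 21.7% at P1, and Tubb5 fills 47.0% and 76.5% of the beta panel.

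Promoter sequence was at hand for 7 of the 10 genes in RefSeq's table on GRCm38.p6, and not for Tubb2b, Mapt and Stmn1. The 250 bases before the RefSeq start are shown for the alpha pair that was higher at P14 and for Tubb5, the beta-tubulin that was most abundant at P1. They lie in Tuba4a at chr1:75219295-75219544 (minus strand), Tuba8 at chr6:121210484-121210733 (plus strand) and Tubb5 at chr17:35838302-35838551 (minus strand). The RefSeq starts differ from the GENCODE gene bounds given above. The Tuba4a window lies wholly inside its GENCODE gene, 75214228 to 75219865. The Tuba8 window runs past the GENCODE start at 121210696, and that of Tubb5 past the start at 35838306. Capitals mark exact matches on either strand to the CCAAT box, to the GC box (GGGCGG), to the TATA box (TATAAA) and to the MCAT element (CATTCC). The last 2 capitals of Tubb5 open a GC box match that runs past the start.
Tuba4a: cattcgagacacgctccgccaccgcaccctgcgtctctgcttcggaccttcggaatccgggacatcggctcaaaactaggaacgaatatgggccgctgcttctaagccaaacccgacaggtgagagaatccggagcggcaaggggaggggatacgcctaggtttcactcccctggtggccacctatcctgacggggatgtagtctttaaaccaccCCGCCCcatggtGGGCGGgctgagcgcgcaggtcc
Tuba8: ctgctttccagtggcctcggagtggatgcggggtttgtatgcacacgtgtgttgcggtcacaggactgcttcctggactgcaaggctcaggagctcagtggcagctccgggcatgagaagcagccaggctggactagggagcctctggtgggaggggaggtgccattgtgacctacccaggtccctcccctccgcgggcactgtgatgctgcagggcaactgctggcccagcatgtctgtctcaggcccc
Tubb5: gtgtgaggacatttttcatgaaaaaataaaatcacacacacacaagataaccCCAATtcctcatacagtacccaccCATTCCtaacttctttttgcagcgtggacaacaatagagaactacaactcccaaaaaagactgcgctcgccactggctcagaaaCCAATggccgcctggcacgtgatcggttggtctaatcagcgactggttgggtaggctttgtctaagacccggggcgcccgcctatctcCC
In the windows of 300 bases, which run 50 bases past the start, Tubb5 held 2 CCAAT matches, 198 and 90 bases before the start, and Tuba1a held 1, while 37.4% of all 32851 promoters held at least 1. The GC box was matched in Tuba1a, Tuba1b, Tuba4a, Tubb2a and Tubb5 and in 35.7% of all promoters. TATAAA was found in Tubb2a alone, 29 bases before the start (13.6% of all promoters), and CATTCC in Tubb5 alone (14.7%). The E-box letters CANNTG were found in all of them but Tubb4a and in 72.3% of all promoters. The letters TTTGAA (CHR, 17.9%), TTGGCGC (2.45%) and TTCCCGC (4.6%), of which the last 2 are forms of the E2F site, were found in none of the 7. No match marked above overlaps another, CANNTG reads the same on both strands, and a match of letters is not a shown binding site.

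Genes whose levels ran most alike were sought over the 6 libraries by Pearson's r of log2(CPM + 0.5), among genes of at least 10 CPM at either age. For Stmn1 these were Tubb2b (r = 0.9984), Hist1h1c (0.9981) and Bmp7 (0.9978). For Tubb2b they were Bmp7 (0.9979), Tmem108 (0.9977) and Ptgds (0.9977), and for Mapt they were Lpin1, Frmd6 and Plin5 (0.9992 each). The 6 values share the split into 2 ages, so that 1166 genes exceeded an r of 0.9 with Stmn1, 1144 with Tubb2b and 1426 with Mapt. Bmp7 had 3.10, 2.26 and 2.06 CPM at P14 and 58.8, 26.4 and 49.3 CPM at P1, low in P1 replicate 2 as Tubb2b was.

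Of the other tubulins measured, most did not pass the test. Of 7 tested genes 2 fell (28.6%, against 43.8% of all genes), 0 rose and 5 did not pass, with a median log2 fold change of −0.37 against −0.01 for all genes. Tubb6 fell to 47.1 ± 6.81 CPM at P14, against 79.6 ± 13.4 CPM at P1 (log2 fold change −0.75 ± 0.20, edgeR adjusted p = 0.00801), and Tuba1c fell to 17.6 ± 3.57 CPM, against 27.9 ± 6.00 CPM (−0.65 ± 0.24, edgeR adjusted p = 0.0369). The Tubb6 call ended without P14 replicate 2 (edgeR adjusted p = 0.0523). That of Tuba1c ended without P14 replicate 2 (0.159), P14 replicate 3 (0.123), P1 replicate 1 (0.0554) or P1 replicate 3 (0.166). The log2 difference of Tubb4b was 0.14 ± 0.24 and did not pass (edgeR adjusted p = 0.680), and its sign turned with library totals alone (−0.29), with the correction for GC content and length (−0.11), without P14 replicate 1 (−0.06) and without P1 replicate 2 (−0.07). Tubg1, the gamma-tubulin that nucleates microtubules, had 24.1 CPM at P14 and 26.6 CPM at P1 (log2 fold change −0.14 ± 0.27).

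Of 20 tested genes for enzymes that modify tubulin 3 rose, 8 fell and 9 did not pass (55.0% called, against 43.8% of all genes), with a median log2 fold change of −0.43. Vasohibin 2 (Vash2), which with its partner Svbp removes the final tyrosine of alpha-tubulin, fell to 1.2, 0.531 and 0.515 CPM at P14, against 31.4, 34.2 and 32.2 CPM at P1 (log2 fold change −5.30 ± 0.32, edgeR adjusted p = 5.02e-08), or −5.93 without P14 replicate 1. Vash1 fell to 3.21 ± 1.03 CPM, against 7.05 ± 2.44 CPM, and Svbp to 34.5 ± 4.49 CPM, against 65.3 ± 5.88 CPM (edgeR adjusted p = 0.0135 and 0.00160). Vash1 and Svbp were named after their values were seen. Ttl, the ligase that returns the tyrosine, had 24.5 ± 2.50 CPM at P14 and 17.2 ± 0.913 CPM at P1 and did not pass (log2 fold change 0.51 ± 0.21, edgeR adjusted p = 0.0580). Among enzymes of the glutamate chains, Agtpbp1, which trims them, rose to 68.8 ± 3.46 CPM, against 19.2 ± 5.27 CPM (edgeR adjusted p = 1.73e-05), and Ttll1, which extends them, rose to 87.5 ± 8.55 CPM, against 34.1 ± 4.06 CPM (edgeR adjusted p = 6.89e-05). The other Agbl, Ttll and Tpgs genes of the list were mixed. Agbl3, Agbl5 and Ttll5 fell (edgeR adjusted p = 0.0265, 0.0179 and 0.00981), Tpgs1 rose (0.00834), and the rest that were tested did not pass. These were named after their values were seen. Atat1, which acetylates alpha-tubulin away from the tail, fell to 9.03 ± 2.85 CPM, against 18.2 ± 0.282 CPM (edgeR adjusted p = 0.00540). Between 4 and 8 genes of the list fell when 1 library was left out, with 4 without P14 replicate 3 and 5 without P14 replicate 1 or 2.

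Of 22 tested tubulin folding genes 6 rose, 7 fell and 9 did not pass (59.1% called, against 43.8% of all genes), with a median log2 fold change of −0.30. Of 8 subunits of the chaperonin that folds new tubulin 4 fell (Tcp1, Cct2, Cct5 and Cct6a) and 4 did not pass, where 43.8% of all genes were called. The plan did not set these subunits apart, and nothing is read from their count. The falls included Cct6a (46.3 ± 5.50 CPM at P14 and 113 ± 20.3 CPM at P1) and Cct2 (141 ± 21 and 298 ± 13.1 CPM), as did the prefoldin subunit Vbp1 (15.1 ± 1.92 and 35.6 ± 6.13 CPM; edgeR adjusted p = 1.81e-04, 4.98e-04 and 4.16e-04). Another prefoldin subunit, Pfdn6 (H2-Ke2 in the table), rose to 74.5 ± 5.16 CPM, against 34.9 ± 13 CPM (edgeR adjusted p = 0.00350). With library totals alone 2 genes of this list rose and 13 fell.

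Among 18 tested microtubule-associated proteins other than tau 4 rose, 4 fell and 10 did not pass (44.4% called, against 43.8% of all genes), and the median log2 fold change was −0.07. Map7d1 (Mtap7d1 in the table), of the MAP7 family that recruits kinesin-1 to microtubules, rose to 387 ± 38.8 CPM at P14, against 108 ± 11.6 CPM at P1 (log2 fold change 1.84 ± 0.20, edgeR adjusted p = 6.22e-06), a log2 fold change that was 1.11 after the correction for GC content and length. Map7 rose to 10.9 ± 2.68 CPM, against 4.68 ± 0.368 CPM. Camsap1, which binds microtubule minus ends, rose to 18.3 ± 2.72 CPM, against 9.95 ± 1.10 CPM, and Map1a fell to 13.5 ± 1.04 CPM, against 25.0 ± 4.31 CPM. Map4, a microtubule-associated protein of many tissues, had 291 CPM at P14 and 317 CPM at P1 and did not pass (log2 fold change −0.12 ± 0.19); it was named after its values were seen. With library totals alone 9 genes of the list fell, and the Camsap1 call ended (edgeR adjusted p = 0.233).

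Of 12 tested genes for proteins that track growing ends 3 rose, 3 fell and 6 did not pass (50% called, against 43.8% of all genes). Of the end-binding genes, Mapre3 rose to 30.9 ± 4.2 CPM at P14, against 10.9 ± 2.13 CPM at P1, and Mapre2 fell to 96.4 ± 11.9 CPM, against 264 ± 8.72 CPM (edgeR adjusted p = 1.37e-04 and 3.86e-05). Mapre1, named after its values were seen, fell as well, to 59.5 ± 5.68 CPM, against 112 ± 24.3 CPM (edgeR adjusted p = 0.00249). Clip1 rose to 109 ± 23.1 CPM, against 55.2 ± 11 CPM, a call that ended with library totals alone (edgeR adjusted p = 0.0961), and the polymerase Ckap5 fell to 26.8 ± 4.35 CPM, against 51.2 ± 6.97 CPM. With library totals alone 1 gene rose and 5 fell, and 5 fell after the correction for GC content and length.

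Of 11 tested genes that, like stathmin, shorten or sever microtubules, 3 rose, 4 fell and 4 did not pass (63.6% called, against 43.8% of all genes). Kif2c, a mitotic depolymerase, fell to 1.08 ± 0.785 CPM at P14, against 13 ± 1.7 CPM at P1 (log2 fold change −3.45 ± 0.40, edgeR adjusted p = 1.58e-05), or −4.15 without P14 replicate 1. The severing enzyme Fign rose to 12.3 ± 3.16 CPM, against 4.23 ± 1.79 CPM (edgeR adjusted p = 0.00246), while Spast, another severing enzyme, fell to 17.4 ± 2.53 CPM, against 29.1 ± 4.08 CPM (edgeR adjusted p = 0.0126). The Spast call ended without P14 replicate 2 (0.0729) or P14 replicate 3 (0.0560). Kif2a fell to 13.4 ± 0.618 CPM, against 20.0 ± 3.46 CPM (edgeR adjusted p = 0.0464). Its call ended in 5 of the 6 fits that left out a library, all but that without P1 replicate 1, at edgeR adjusted p = 0.0902 to 0.113, with DESeq2 (0.0502) and limma voom (0.0527), and after the correction for GC content and length (0.110). Of the other stathmins, Stmn2 had 7.81 CPM at P14 and 6.78 CPM at P1 and did not pass, and Stmn4 rose to 1.91 CPM, against 0.386 CPM (edgeR adjusted p = 0.00278), on 2 to 35 reads per library. Among 9 tested kinases of tau and stathmin only the microtubule affinity-regulating kinase Mark2 rose, to 37.0 ± 6.41 CPM, against 21.5 ± 6.41 CPM (edgeR adjusted p = 0.0191), and 8 did not pass (11.1% called, against 43.8% of all genes). That call ended without P14 replicate 2 (0.068) or P14 replicate 3 (0.0883), with library totals alone (0.291) and after the correction for GC content and length (0.0570).

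**Figure D5:**
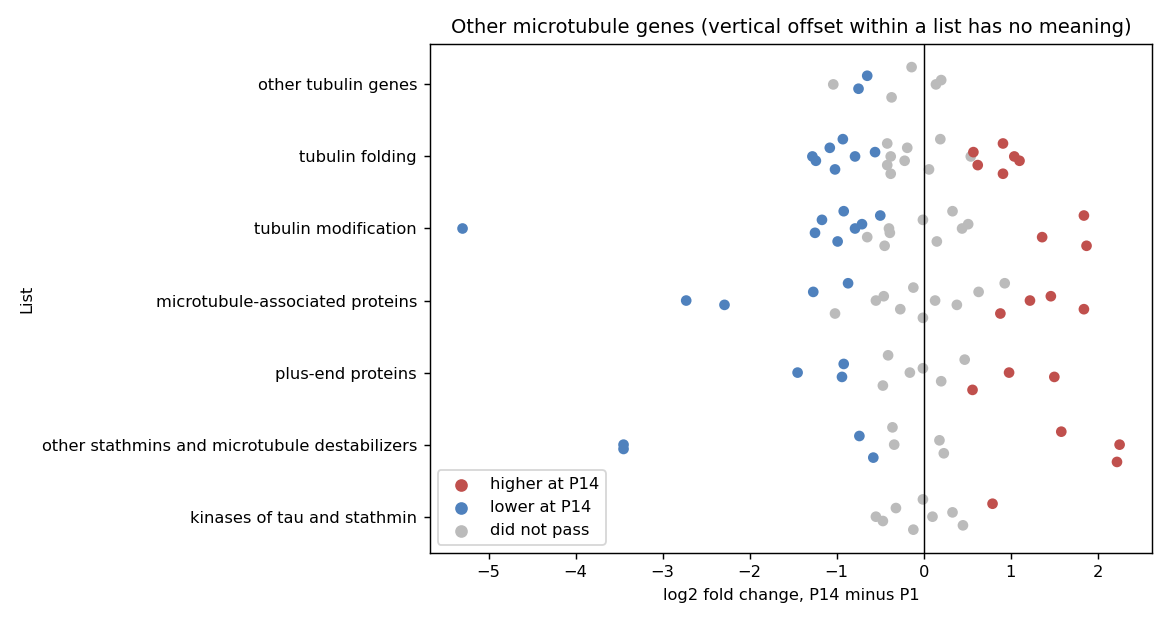
Each point is 1 gene of a list, placed by its log2 fold change, P14 minus P1, and coloured by the edgeR call; vertical offsets have no meaning. Red and blue points stand in most lists, and the point farthest left is Vash2 at −5.30.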

How the data were processed

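The authors deposited raw counts, whole reads assigned to each gene in each library, in 1 table; per the submitters' processing notes the build was GRCm38 (mm10), and bedtools and edgeR 3.2.4 are named without saying for what. The aligner, the counter and their settings were not given in the sources used here. Because the smallest gene total is 60, rarer genes are not analysed here. Poly(A) RNA was read for 36 cycles. Columns were tied to samples by age and replicate number in their names.

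filterByExpr with minimum count 10 retained 14301 of 14495 genes, which were scaled by TMM and fitted with edgeR 4.0.16 (robust quasi-likelihood, two-sided, Benjamini-Hochberg over all genes) in R 4.3.3; limma 3.58.1 and DESeq2 1.42.0 served as alternatives. The SE is the coefficient over the square root of F. The fit was tested on simulated data. The spread is between pools of hearts. As a check of pairing, residuals about each age mean had correlations of 0.295, 0.112 and 0.102 for libraries with equal replicate numbers. Libraries with unequal numbers had correlations of −0.214 to 0.09. By a threshold of 0.1 the numbers were taken to pair the libraries, though by a narrow margin. The main fit used age alone all the same, and the block on replicate number was run as an alternative. With that block 3561 genes were called higher and 3435 lower at P14, against 3115 and 3149 in the main fit. The share of all genes set beside each list is that of the main fit. Positions, exon lengths and 36-base windows came from GENCODE M21, which holds 14320 of the identifiers (98.8%); windows were sought in annotated transcripts only, on both strands.

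The 10 genes and the lists were chosen with earlier results of these data known. Lists were named by up to 4 called genes of at least 10 CPM at either age with the largest change, at most 1 further called gene against the main direction, and every alpha- and beta-tubulin measured. Older symbols in the table were matched by identifier. Alternatives covered scaling, filters, other tests, the replicate block, a GC and length correction (spline with 4 degrees of freedom), a threshold of 0.01 and leaving out each library. Some coding sequences are not reported here.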

Additional observations from a re-analysis of the deposited data

How the results depend on the processing

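The number of genes higher and lower at P14 was 3115 and 3149, 1620 and 5592 with library totals alone, and 2025 were lower at an adjusted p under 0.01. Leaving out 1 library gave 2387 to 3401 higher and 2269 to 3309 lower. The 10 tubulin, tau and stathmin genes were chosen on these levels, so their calls across settings, 4 higher and 3 to 6 lower, are no sign of stability. Without 1 library, the number lower was 0 to 2 among other tubulins (0 without P14 replicate 2) and 4 to 8 among modification genes, and 0 to 2 kinases rose (0 without P14 replicate 2 or 3, 2 without P1 replicate 2).

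With library totals alone, 4 other tubulins fell, 2 folding genes rose and 13 fell, 9 associated proteins fell, 1 plus-end gene rose and 5 fell, and 0 kinases rose and 3 fell. With the GC and length correction 5 plus-end genes and 1 kinase fell; the same with the replicate block gave 5, 1 and 2 kinases that rose. The replicate block alone gave Tuba1b a log2 fold change of −0.52 with a call and changed no other call among named genes. With limma voom 1 other tubulin fell. With the stricter filter (over 5 CPM in 3 libraries) 1 associated protein fell and 1 destabilizer rose. That filter left out Map7d3, Mid1 and Map9, which fell in the main fit, and Stmn4 and Fignl2, which rose in it. The means of all of them were under 5 CPM at both ages. At an adjusted p under 0.01, 1 other tubulin, 4 modification genes and 2 destabilizers fell and 0 kinases rose. Tubb4b reversed to −0.29 with library totals alone, −0.11 with the GC and length correction, with or without the block, −0.06 without P14 replicate 1 and −0.07 without P1 replicate 2, and lay between −0.07 and 0.33 without 1 library. Apart from the genes that the stricter filter left out, the cause of these shifts was not tested.

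Share differences, P14 minus P1 in percentage points, changed with the divisor. Without division by length they were 19.3 for Tuba8, 15.1 for Tubb4b and −2.57 for Tubb2b. With unique windows they were 15.7 for Tuba8, −3.10 for Tuba1c, 3.64 for Tubb6, 24.8 for Tubb4b, −5.20 for Tubb2b and 2.75 for Tubb4a. With that divisor, added after seeing the data, the log2 ratio of the alpha-tubulin total was 0.63 in place of 1.52, and the joint share of Tuba4a and Tuba8 differed by 48.9 points in place of 58.7. Over the listed genes only they were −12.5 for Tubb5, 9.78 for Tubb2a and 6.54 for Tubb4a. Depth limits Stmn1 and Tubb2b at P14 and Tuba8 and Mapt at P1, which rest on 5 to 56 reads per library.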
